A study of Homo sapiens with 8 samples.

Results

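The genes described here are 10 identity genes of the retinal pigment epithelium (RPE), the pigmented monolayer behind the photoreceptors: RPE65, RLBP1, RDH5, BEST1, SERPINF1, PMEL, MITF, OTX2, SOX9 and PAX6. They were chosen by symbol, as genes of the retinoid cycle, of pigment and of RPE transcription, and all 10 were found in both expression tables, among 57884 listed genes. The question was how far each batch and each genotype label kept the lineage that the samples are named for.

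The samples were 8 RNA sequencing libraries of hTERT-RPE1, a human RPE line immortalised by expressing telomerase. Cells were labelled ATF3 wild type or ATF3 knockout, and were grown either in complete medium or for 8 h in medium free of serine and glycine. The 4 resulting groups had 2 libraries each, 1 from each of 2 experiments run a week apart, called batch 1 and batch 2 below. The titles mark the complete-medium libraries 0 h and the others 8 h, so the medium and the elapsed time, with its wash, cannot be told apart in any medium comparison. All groups shared the line and its telomerase transgene, and the labels state neither the knockout allele nor whether the knockout was 1 clone.

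RPE cells take all-trans retinol from the photoreceptors and return 11-cis retinal, a cycle in which LRAT esterifies retinol, RPE65 isomerises the ester, RLBP1 carries the 11-cis retinoid and RDH5 oxidises it. They also hold melanin granules, move ions and lactate between retina and blood, engulf shed photoreceptor tips and secrete factors such as pigment epithelium-derived factor (SERPINF1). MITF and OTX2 drive the pigment programme with SOX9 as a partner at visual cycle genes, and PAX6 acts in the early optic vesicle before its level falls in mature RPE.

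Expression was given as FPKM, fragments counted per unit of transcript length and of library size, in 1 table for each batch. The absolute depth is unknown, and an FPKM of 0 means only that a gene was listed at 0. Each library had 22489 to 25185 genes above 0 and 11173 to 12024 protein-coding genes at 1 FPKM or more. ATF3, the stress-induced transcription factor that the genotype label names, was at 3.47 FPKM (complete) and 6.46 FPKM (serine/glycine-free) in batch 1 wild type and, in the same order, at 3.38 and 4.45 FPKM with the knockout label. The batch 2 values were 3.65 and 18.0 FPKM in wild type, 20.8 and 57.3 FPKM with the knockout label. The mRNA was thus present with the knockout label in both batches, and in batch 2 it was higher than in wild type. Gene-level FPKM alone cannot tell whether ATF3 was lost. For this reason "knockout" is a label throughout, and no direction below is tied to loss of ATF3.

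Because ATF3 belongs to the ATF/CREB family, whose members bind the motif TGACGTCA, the members' promoters were searched for that motif, for the OTX motif TAATCC and for an E-box that MITF can bind, either CATGTG or the palindrome known as CACGTG. Both strands were searched, and matches to the E-box on the 2 strands can overlap. RefSeq promoter windows on GRCh38.p14, 300 bases from 250 before to 50 after a transcript start, were found for 6 of the 10 members, 17 windows in all (9 for PAX6, 3 for MITF, 2 for OTX2, 1 each for RPE65, RLBP1 and RDH5). BEST1, SERPINF1, PMEL and SOX9 had none. TGACGTCA lay in 2 of the 17 windows, 1 of MITF and 1 of PAX6, against 1.84% of all 34796 windows. An OTX motif lay in 1 window, of RLBP1 (6.35% of all windows), and an E-box in 4 (17.6% of all windows). The windows of the 2 genes with TGACGTCA, and of 2 retinoid cycle genes of opposite level, are shown 5′ to 3′ on the gene's strand with motifs in capitals. They are RLBP1 (chr15:89221530-89221829, minus strand), RDH5 (chr12:55720143-55720442, plus strand), the most downstream of the 3 MITF starts, known as that of the melanocyte form (chr3:69936342-69936641, plus strand), and the most upstream of the 9 PAX6 starts (chr11:31817912-31818211, minus strand).
RLBP1: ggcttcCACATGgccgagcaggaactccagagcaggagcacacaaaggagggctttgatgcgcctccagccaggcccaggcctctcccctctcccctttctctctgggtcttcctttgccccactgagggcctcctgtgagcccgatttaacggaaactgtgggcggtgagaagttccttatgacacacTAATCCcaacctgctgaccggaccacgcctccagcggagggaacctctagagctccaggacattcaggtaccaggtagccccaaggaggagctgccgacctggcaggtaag
RDH5: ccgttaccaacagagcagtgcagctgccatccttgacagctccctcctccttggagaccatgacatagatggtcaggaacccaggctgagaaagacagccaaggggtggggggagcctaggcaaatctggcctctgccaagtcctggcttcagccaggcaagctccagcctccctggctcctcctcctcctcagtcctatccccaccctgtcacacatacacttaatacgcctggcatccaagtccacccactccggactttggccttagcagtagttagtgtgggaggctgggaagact
MITF: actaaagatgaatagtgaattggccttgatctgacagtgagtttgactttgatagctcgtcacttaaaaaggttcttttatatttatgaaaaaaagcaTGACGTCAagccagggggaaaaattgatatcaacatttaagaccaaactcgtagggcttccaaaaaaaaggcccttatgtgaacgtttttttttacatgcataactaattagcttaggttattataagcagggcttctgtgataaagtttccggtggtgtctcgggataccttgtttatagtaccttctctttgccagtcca
PAX6: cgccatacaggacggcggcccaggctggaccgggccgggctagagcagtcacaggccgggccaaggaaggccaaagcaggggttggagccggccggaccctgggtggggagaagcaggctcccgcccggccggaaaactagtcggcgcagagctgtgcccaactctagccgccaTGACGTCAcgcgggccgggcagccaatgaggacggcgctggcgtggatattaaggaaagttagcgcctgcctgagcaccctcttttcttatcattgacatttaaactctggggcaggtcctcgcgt
TGACGTCA began at position −152 from the MITF start and −76 from the PAX6 start. RLBP1, which holds both an E-box and the OTX motif, was listed at 0 in 7 of 8 libraries. RDH5, whose window holds none of the motifs, was above 1 FPKM in 7 of 8. The window of RPE65 holds none of them either, and RPE65 was under 1 FPKM in all 8. A match is only a match of letters, and gene-level FPKM does not show which start was used.

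Of the 10 identity genes, 4 stood at 1 FPKM or more in all 4 libraries of batch 1 (RDH5, SERPINF1, MITF and SOX9) and 3 in all 4 libraries of batch 2 (MITF, SOX9 and PAX6). By the same measure, 57.8% of 19254 protein-coding genes were present throughout batch 1 and 54.6% throughout batch 2. MITF and SOX9 were thus the only members at this level in all 8 libraries, and the genes for the isomerisation and the handling of 11-cis retinoids (RPE65, RLBP1), for the chloride channel (BEST1) and the melanosome fibril (PMEL), and OTX2 were below 1 FPKM in most or all of them. In whole cultures, fewer cells of a type and less RNA per cell cannot be told apart.

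Ordered by mean FPKM, batch 1 ran SOX9 (6.91), MITF (5.45), SERPINF1 (5.44), RDH5 (4.42), PMEL (0.803), BEST1 (0.701), RPE65 (0.273) and PAX6 (0.163), with RLBP1 and OTX2 listed at 0. The ranges of the 4 highest overlapped each other, and the lowest of them (RDH5, 2.42 to 6.23) did not reach down to PMEL (0.522 to 1.15). In batch 2 the order was PAX6 (9.42), SOX9 (7.64), MITF (3.11), RDH5 (1.5), SERPINF1 (1.40), BEST1 (0.572), RPE65 (0.408), PMEL (0.367) and RLBP1 (0.0411), with OTX2 at 0. There each gene's range overlapped that of the next, apart from SERPINF1 (0.780 to 2.28) and BEST1 (0.291 to 0.756), which lay close, so the wide step that batch 1 showed was not seen. PAX6 stood first where it had stood among the lowest.

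**Figure D1:**
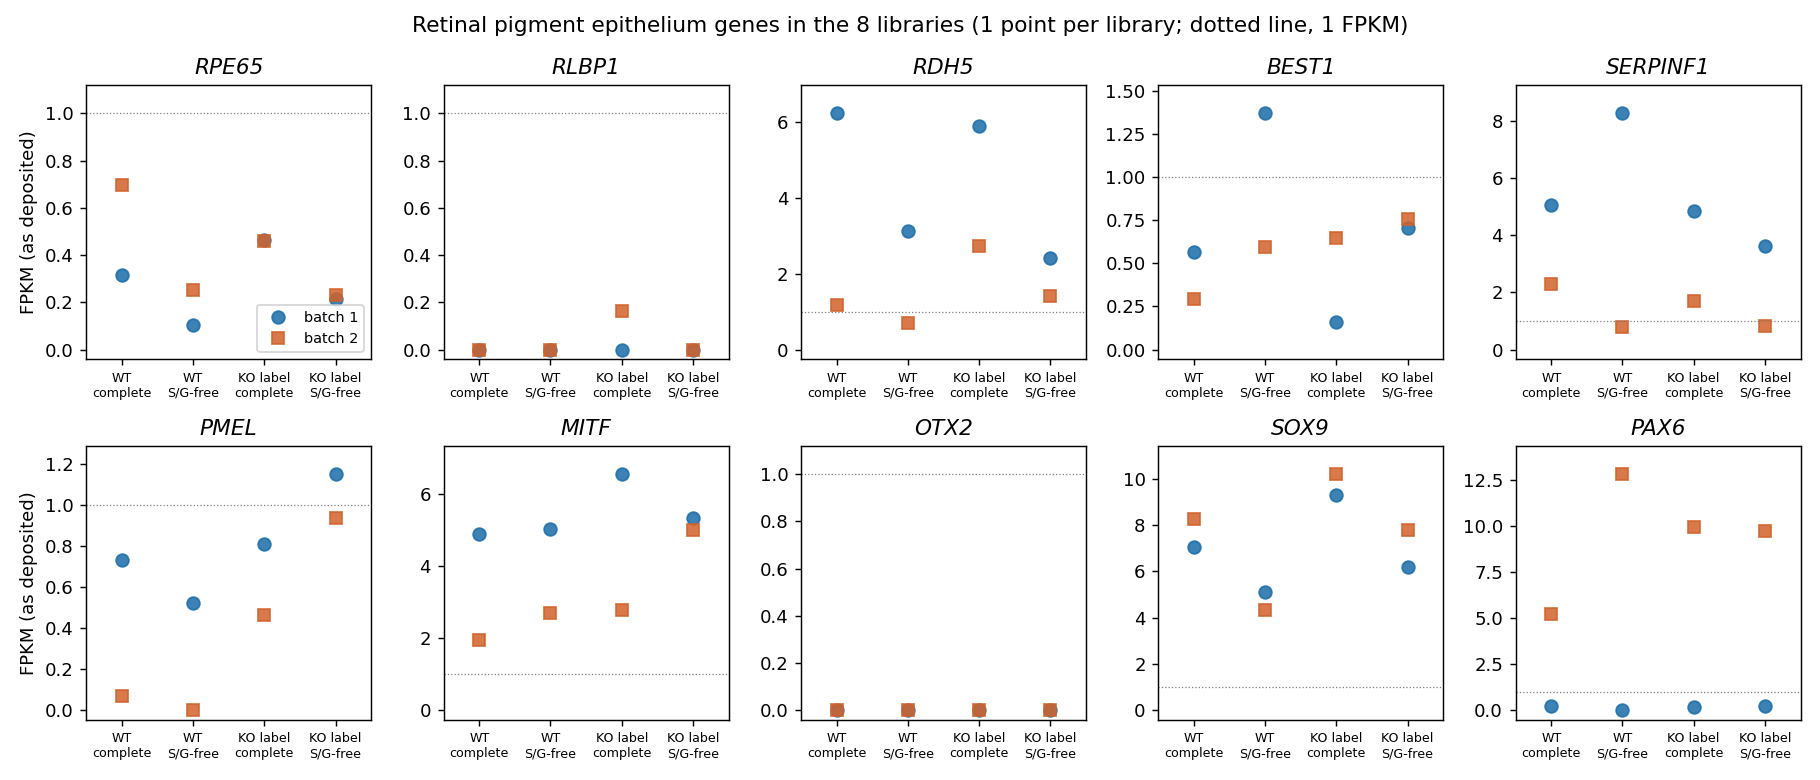
FPKM (vertical axis, a scale for each gene) of the 10 identity genes in the 4 groups (horizontal axis), 1 point per library, circles for batch 1 and squares for batch 2, with the dotted line at 1 FPKM. PAX6 lies at 0.0197 to 0.231 FPKM in batch 1 and 5.2 to 12.8 in batch 2, SERPINF1 lies higher in batch 1 throughout, and OTX2 is at 0 in all 8 libraries.

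The retinoid cycle genes were low or listed at 0 apart from RDH5. RPE65 (ENSG00000116745, hg19 chromosome 1, 68894505 to 68915642), the isomerohydrolase that makes 11-cis retinol, was at 0.316 and 0.102 FPKM in wild type of batch 1 (complete, then serine/glycine-free medium) and at 0.463 and 0.212 in the libraries labelled knockout. Batch 2 gave 0.695 and 0.251 in wild type and 0.458 and 0.230 in those labelled knockout. All 8 values were under 1 FPKM, and between 23.6% and 39.7% of protein-coding genes had a lower value in the same library. RPE65 was lower without serine and glycine in 4 of 4 pairs, by 1.99 to 3.1 times, and its 4 complete-medium values lay above all 4 of the others.

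RLBP1 (ENSG00000140522, chromosome 15, 89753100 to 89764982), which encodes the 11-cis retinoid carrier CRALBP, was listed at 0 in 7 libraries and at 0.165 FPKM in the batch 2 complete-medium library labelled knockout. RDH5 (ENSG00000135437, chromosome 12, 56075330 to 56118489), the 11-cis retinol dehydrogenase, was the retinoid cycle member with the highest level. In batch 1 it was at 6.23 and 3.12 FPKM in wild type and at 5.90 and 2.42 in libraries with the knockout label. In batch 2 it was at 1.17 and 0.706 in wild type and at 2.74 and 1.40 in those labelled knockout. Each batch 1 value exceeded its batch 2 counterpart, with an overlap only between the lowest of batch 1 and the highest of batch 2. RDH5 shares its locus in the files with 4 genes, among them BLOC1S1 (18.9 to 79.1 FPKM) and ITGA7, and the sources used here do not give whether strand was used in counting, so reads may have been divided among them.

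Of 9 further visual cycle genes, 7 passed the filter for testing (1 FPKM or more in at least 2 libraries), 6 were at 1 FPKM or more throughout batch 1 and 3 throughout batch 2. RDH11, a retinol dehydrogenase of many tissues, was the highest, at 42.8 to 97.8 FPKM in batch 1 and 49.6 to 106 in batch 2. RDH10, which oxidises all-trans retinol, was at 3.46 to 8.08 FPKM in batch 1 and 14.4 to 23.6 in batch 2. The RPE-restricted RGR, an opsin, and TTR, a retinol transport protein, were at or below 0.186 FPKM in all 8 libraries.

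Genes of retinol uptake and storage divided by batch or by culture. LRAT was at 0 to 0.0472 FPKM in 6 libraries and at 1.71 and 2.39 in the batch 2 libraries labelled knockout. STRA6, the membrane receptor for retinol-binding protein, was at 1.86 to 4.58 FPKM in all of batch 1, at 0.622 and 0.123 in batch 2 wild type and at 4.49 and 3.04 in batch 2 labelled knockout.

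BEST1 and SERPINF1 stand for the ion transport and the secretion of RPE. BEST1 (ENSG00000167995, chromosome 11, 61717293 to 61735132), a calcium-activated chloride channel of the basolateral membrane, was at 0.567 and 1.37 FPKM in wild type of batch 1 and at 0.160 and 0.705 in the libraries labelled knockout. The batch 2 values were 0.291 and 0.595 in wild type and 0.646 and 0.756 in those labelled knockout. Only 1 library, batch 1 wild type without serine and glycine, passed 1 FPKM, and the serine/glycine-free value was the higher of each pair. BEST1 shares its locus with FTH1, the ferritin heavy chain, at 207 to 782 FPKM, so a small share of misplaced FTH1 reads could not be told from BEST1.

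SERPINF1 (ENSG00000132386, chromosome 17, 1665253 to 1680868), which encodes an antiangiogenic and neurotrophic secreted protein, was at 5.04 and 8.26 FPKM in wild type of batch 1 and at 4.85 and 3.63 in the libraries labelled knockout. Its batch 2 values were 2.28 and 0.780 in wild type and 1.71 and 0.817 in those labelled knockout. The batches did not overlap, and the batch 1 mean was 3.9 times that of batch 2. The tables were normalized separately and the batches are single experiments, so this is a description with no test. Of all genes tested, 29.8% were lower in every library of batch 2 than in any of batch 1.

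The functional genes around these members were present in good part. Of 20 genes of transport, adhesion and phagocytosis, 15 were at 1 FPKM or more throughout batch 1 and 14 throughout batch 2. BSG (basigin, the partner of lactate transporters) was at 146 to 193 FPKM in batch 1 and 139 to 185 in batch 2, and the lactate transporter gene SLC16A1 at 55.4 to 86.1 and 66.5 to 79.1, with overlap in both. The RPE form of that transporter, SLC16A8, and the potassium channel KCNJ13, which are more restricted to RPE, passed 1 FPKM in 1 library each (1.2 and 1.21). SLC16A3, the lactate exporter of glycolytic cells, was at 4.73 to 9.51 FPKM in batch 1 and 128 to 247 in batch 2. The water channel gene AQP1 was at 6.87 to 11.4 FPKM in batch 1 and at 0.486 or less in batch 2.

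All 10 genes of the list of secreted proteins were at 1 FPKM or more throughout batch 1, and 7 were throughout batch 2. TIMP3, an inhibitor of matrix proteases that RPE lays down in its basement membrane, was at 5.13 to 14.6 FPKM in batch 1 and at 0.053 or less in batch 2. EFEMP1, another matrix protein, was at 29.9 and 23.0 FPKM in batch 1 wild type and 12.1 and 11.9 in batch 1 labelled knockout. In batch 2 it was at 0.752 and 2.42 in wild type and at 9.30 and 10.5 in the libraries labelled knockout, so its order by label was reversed between the batches.

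PMEL and the melanin enzymes were low. PMEL (ENSG00000185664, chromosome 12, 56347889 to 56367101), which forms the fibrils on which melanin is laid down, was at 0.732 and 0.522 FPKM in wild type of batch 1 and at 0.809 and 1.15 in the libraries labelled knockout. Batch 2 gave 0.0696 and 0 in wild type and 0.463 and 0.935 in those labelled knockout. In each of the 4 pairs the library labelled knockout was the higher, and 1 of 8 values passed 1 FPKM. Its locus is shared with CDK2 (30.7 to 70.2 FPKM) and with an antisense RNA at 16.1 to 22.4 FPKM, each many times PMEL itself.

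Of 16 other melanosome and pigment genes, 10 were below 1 FPKM in all 8 libraries. The enzymes of melanin synthesis were among them: TYR reached 0.113 FPKM, TYRP1 0.400 and DCT 0.071. Of the genes that were present, RAB27A, which tethers melanosomes but also other secretory organelles, was at 2.02 to 4.41 FPKM in batch 1 and 2.22 to 4.89 in batch 2. Its partner MLPH was at 0.0775 FPKM or less in batch 1 and at 60.9 and 66.0 in batch 2 wild type, against 31.2 and 31.1 in batch 2 labelled knockout. GPNMB, a relative of PMEL, went the other way, at 10.4 to 23.8 FPKM in batch 1 and at 0.892 or less in batch 2. GPR143, the melanosome receptor of ocular albinism, was listed at 0 in 6 libraries and was at 1.90 and 2.36 FPKM in the batch 2 libraries labelled knockout. Melanocyte markers were below 1 FPKM throughout (6 of 6), with KIT and EDNRB at 0 in all 8 libraries and a summed level of 0.403 to 0.541 FPKM in batch 1 and 0.148 to 0.345 in batch 2.

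Among the transcription factors, OTX2 (ENSG00000165588, chromosome 14, 57267425 to 57277197) was listed at 0 in all 8 libraries. MITF (ENSG00000187098, chromosome 3, 69788586 to 70017488) was at 4.89 and 5.03 FPKM in wild type of batch 1 and at 6.55 and 5.32 in libraries with the knockout label. In batch 2 it was at 1.96 and 2.70 in wild type and at 2.79 and 5.0 in those labelled knockout. The batches met only through the highest batch 2 library (labelled knockout, without serine and glycine), which lay within the batch 1 range, and the batch 1 mean was 1.75 times that of batch 2. A gene-level value does not separate the RPE forms of MITF from the melanocyte or ubiquitous forms.

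SOX9 (ENSG00000125398, chromosome 17, 70017992 to 70216859) had the closest batch means, by their ratio (1.11), of the 5 tested members. It was at 7.06 and 5.09 FPKM in wild type of batch 1 and at 9.30 and 6.19 in the libraries labelled knockout. The batch 2 values were 8.25 and 4.33 in wild type and 10.2 and 7.80 in those labelled knockout. The 2 ranges overlapped almost wholly, and between 54.9% and 69.5% of protein-coding genes were lower in the same library. SOX9 is a factor of cartilage, gut and many other epithelia too. Its locus is shared with 6 other listed genes, all at 3.37 FPKM or less, the antisense RNA SOX9-AS1 among them.

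PAX6 (ENSG00000007372, chromosome 11, 31806340 to 32127301), the eye field and neural factor, parted the batches most. It was at 0.227 and 0.0197 FPKM in wild type of batch 1 and at 0.172 and 0.231 in libraries with the knockout label. In batch 2 it was at 5.2 and 12.8 in wild type and at 9.94 and 9.71 in those labelled knockout. The batch 2 mean was 58 times that of batch 1 (9.42 against 0.163 FPKM), and the lowest batch 2 library lay far above the highest of batch 1. Of all genes tested, 15.8% were higher in every library of batch 2 than in any of batch 1, and 2.05% were so by at least 20 times, a size chosen after the values of PAX6 were seen. RCN1, which shares the locus, was at 71.0 to 103 FPKM in batch 1 and 26.3 to 46.0 in batch 2, the opposite order to PAX6.

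Of 8 relatives and partners of these factors, 6 were at 1 FPKM or more throughout batch 1 and 3 throughout batch 2. TFE3, a ubiquitous relative of MITF, was at 19.6 to 23.6 FPKM in batch 1 and 12.7 to 21.9 in batch 2. SOX5 was at 2.10 to 8.68 FPKM in batch 1 and at 0 in all of batch 2. NR2F1, a nuclear receptor of eye development, was at 0.295 FPKM or less in batch 1 and at 2.65 to 7.68 in batch 2. Of 15 eye field and neural retina genes, 11 were below 1 FPKM in all 8 libraries and RCVRN was listed at 0 in each, and the eye field genes RAX, SIX3 and SIX6 were at 0.147 FPKM or less. LHX2, also of the eye field, was at 0 to 0.601 FPKM in batch 1 and 0.401 to 1.14 in batch 2. Genes of the same list that also passed 1 FPKM were PDE6B, NRL and OTX1. PDE6B was at 0.586 to 2.95 FPKM in batch 1 and at 0.0413 or less in batch 2. NRL was at 0.256 to 0.806 FPKM in batch 1 and 0 to 2.19 in batch 2, and OTX1 at 0.155 to 1.05 and 0 to 0.529.

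**Figure D2:**
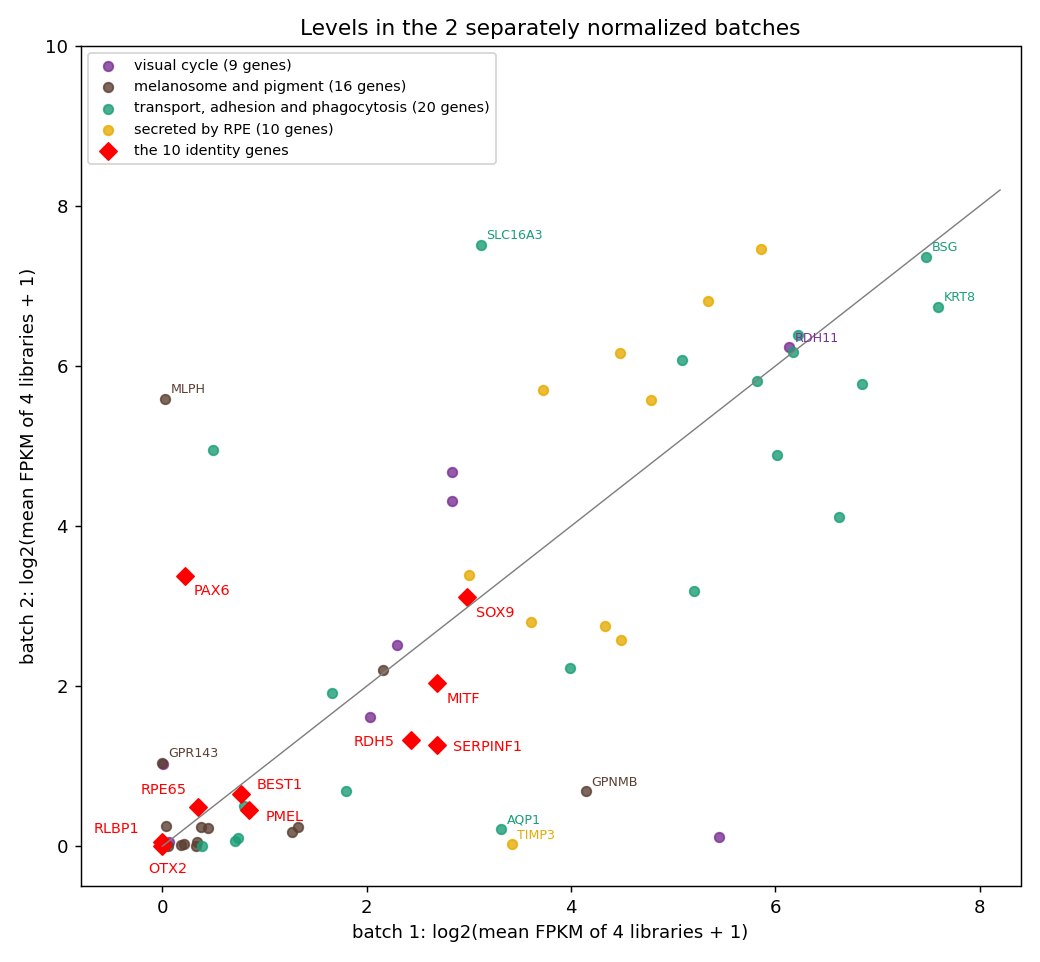
Mean level over the 4 libraries of batch 1 (horizontal) and of batch 2 (vertical), both as log2(mean FPKM + 1), for the 10 identity genes (red diamonds) and the 55 genes of 4 RPE function lists (circles), with the line of equality. The tables were normalized separately. SOX9 lies near the line, PAX6 with MLPH and SLC16A3 far above it, and SERPINF1 with GPNMB, AQP1 and TIMP3 below it.

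Summed markers of other epithelia and of mesenchyme moved with the batch and, within batch 2, with the label. The 10 markers of other epithelia summed to 14.2 to 25.9 FPKM in batch 1, to 478 and 295 in batch 2 wild type and to 913 and 752 in batch 2 labelled knockout. KRT19 was at 0.741 FPKM or less in batch 1 and at 216 to 375 in batch 2, while CDH1 (E-cadherin) was at 1.23 FPKM or less in 6 libraries and at 60.0 and 56.2 in the batch 2 libraries labelled knockout. KRT19 and CLDN4 (135 and 55.5 FPKM) made up most of the batch 2 wild-type sums. EPCAM, ESRP2 and CLDN7 were also higher there than in batch 1, but ESRP1 and GRHL2 were at 0.315 FPKM or less. KRT5 and KRT14, under 1 FPKM in batch 1, were at 0 in all of batch 2. The 14 mesenchyme and fibroblast genes summed to 1330 to 1860 FPKM in batch 1, to 698 and 770 in batch 2 wild type and to 187 and 193 in batch 2 labelled knockout. VIM made up most of each sum, at 809 to 1250, at 598 and 638, and at 118 and 102 FPKM in that order. Not all genes of the list moved so: FN1, ZEB2 and TWIST1 had higher means in batch 2 (TWIST1 0.0381 against 9.45 FPKM). Within batch 2, COL1A1, PDGFRB and LUM were among those higher with the knockout label (log2 differences 0.37, 0.28 and 0.55). SPARC was at 343 to 429 FPKM in batch 1 and at 1.66 or less in batch 2. The 5 endothelial and immune markers that were found were all below 1 FPKM. The part of these differences in the levels of PAX6, SERPINF1, MITF, RDH5 and the other members was not tested. Batch and every difference between the 2 experiments, the cells themselves included, cannot be told apart.

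Group comparisons were made within the tables, with limma on log2(FPKM + 1) over 17994 genes and the batch as a block. The members RDH5, SERPINF1, MITF, SOX9 and PAX6 passed the filter, PAX6 through batch 2 alone. RPE65, RLBP1, BEST1, PMEL and OTX2 did not pass it. Fold changes on this scale understate those of low genes.

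Removal of serine and glycine for 8 h changed none of the 5 tested members past the threshold (adjusted p under 0.05) in either genotype. In wild type 0 of 5 were called where 0.0556% of all genes were, and 1 of 5 had an unadjusted p under 0.05, as had 1014 of all genes. That member was SOX9, with a log2 fold change of −0.60 ± 0.22 (SE, n = 2 pairs, limma adjusted p = 0.85). RDH5 followed with −0.58 ± 0.35 (limma adjusted p = 0.933), then PAX6 with 0.44 ± 0.38, MITF with 0.18 ± 0.30 and SERPINF1 with −0.13 ± 0.40. PAX6 differed between the batches here: it was 2.47 times as high without serine and glycine in batch 2 and lower in batch 1, where both values were under 1 FPKM.

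In the libraries labelled knockout 0 of 5 members were called, beside 0.0167% of all genes, and 0 had an unadjusted p under 0.05, against 1006 of all genes. RDH5 had the lowest p, with a log2 fold change of −0.83 ± 0.35 (SE, n = 2 pairs, limma adjusted p = 0.902), and SOX9 stood at −0.43 ± 0.22, SERPINF1 at −0.46 ± 0.40, MITF at 0.20 ± 0.30 and PAX6 at 0.02 ± 0.38. The median over the 5 members was −0.43, against 0.01 over all genes tested; in wild type it was −0.13 against 0.02.

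Taking the 4 pairs of both genotypes, RPE65, RDH5 and SOX9 were each lower without serine and glycine in 4 of 4. The mean differences on the log2 scale were −0.30 ± 0.09 for RPE65, −0.70 ± 0.28 for RDH5 and −0.52 ± 0.20 for SOX9 (SD, n = 4 pairs). BEST1 was higher in 4 of 4, by 0.39 ± 0.24. FTH1, which shares its locus, was higher in the same 4 pairs (222 to 300 and 207 to 216 FPKM in batch 1, 473 to 538 and 659 to 782 in batch 2), and its part in the BEST1 values was not tested. The exact two-sided sign-flip test gave p = 0.125 for each of the 4 genes, the smallest that 4 pairs can give. Of all genes tested, 11.4% were lower and 14.6% higher in 4 of 4 pairs, and of genes below the filter but above 0 in at least 7 libraries 8.91% were lower and 6.6% higher in 4 of 4.

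RDH10 and RDH11, of the visual cycle list, were placed as RDH5 was. RDH10 went from 8.08 to 5.80 and from 7.32 to 3.46 FPKM in batch 1 (wild type, then labelled knockout), and from 22.1 to 14.4 and from 23.6 to 15.5 in batch 2. RDH11 was also lower in 4 of 4 pairs, with log2 fold changes of −0.46 ± 0.21 in wild type and −0.46 ± 0.21 in those labelled knockout (SE, limma adjusted p = 0.901 and 0.906). These 2 of the 7 tested visual cycle genes were lower in 4 of 4 pairs, and 0 were higher in 4 of 4. Over the 39 tested genes of the 4 RPE function lists, 0 were called in either medium response. Of the 10 tested genes of the secretion list, 3 (CST3, LIF and VEGFA) were higher without serine and glycine in 4 of 4 pairs and 0 lower. VEGFA, the vascular growth factor, had a log2 fold change of 1.14 ± 0.38 in wild type (limma adjusted p = 0.817). Among the 16 tested transport, adhesion and phagocytosis genes, 4 were higher in 4 of 4 pairs and 3 lower. Over all genes tested these shares were 14.6% higher and 11.4% lower.

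**Figure D3:**
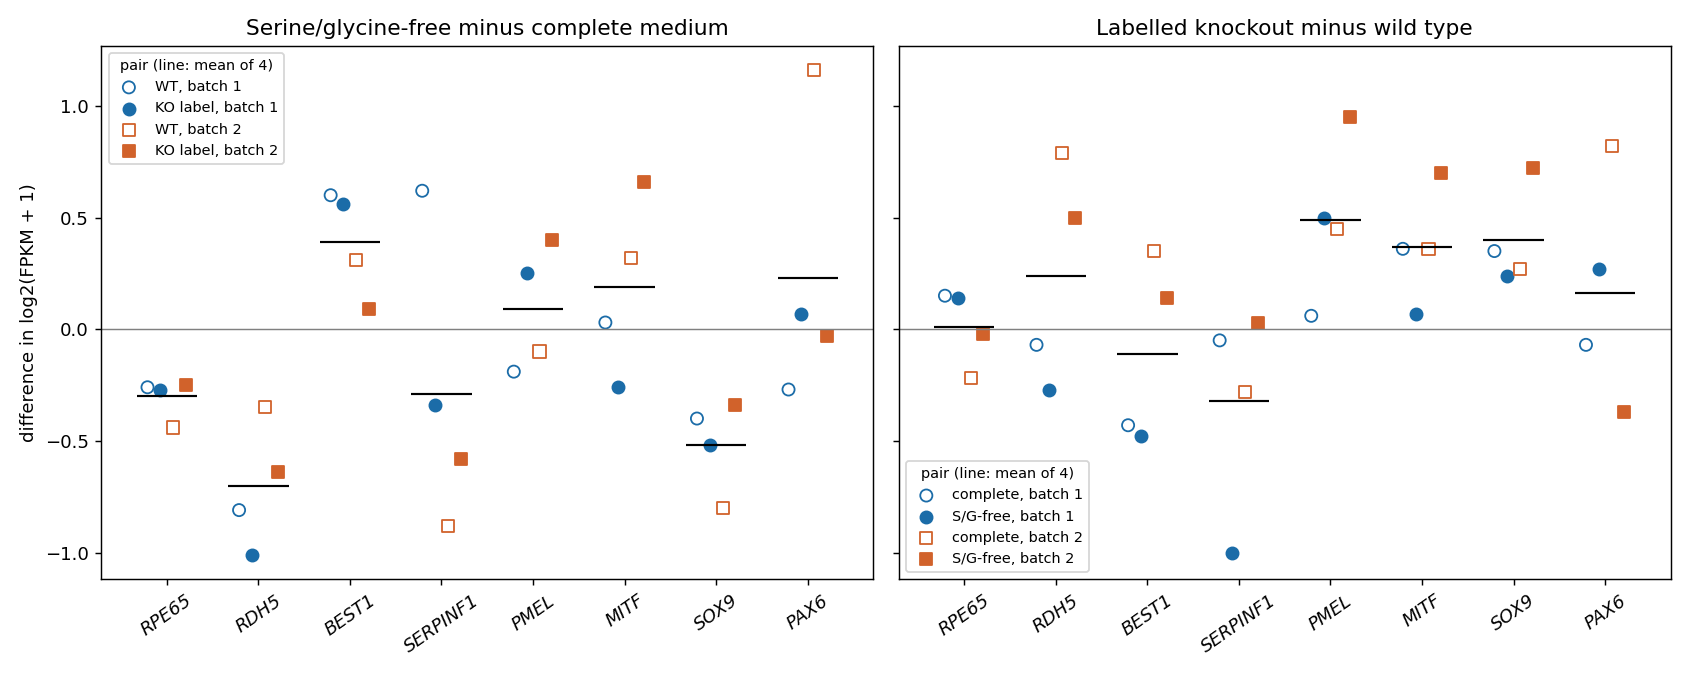
Differences in log2(FPKM + 1) of 8 identity genes within each pair of libraries, for the medium (left) and the genotype label (right). Each point is 1 pair, circles for batch 1 and squares for batch 2, and the black line is the mean of 4. RPE65, RDH5 and SOX9 lie below 0 and BEST1 above it in all 4 medium pairs, and PMEL, MITF and SOX9 lie above 0 in all 4 genotype pairs. RLBP1 and OTX2, at 0 in nearly all libraries, are left out.

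The genotype label was not tied to a called difference in any tested member. In complete medium 0 of 5 were called, beside 0.0333% of all genes, and 0 had an unadjusted p under 0.05, against 860 of all genes. The log2 differences (labelled knockout minus wild type) were 0.38 ± 0.38 for PAX6, 0.36 ± 0.35 for RDH5, 0.36 ± 0.30 for MITF, 0.31 ± 0.22 for SOX9 and −0.16 ± 0.40 for SERPINF1 (SE, n = 2 pairs), with limma adjusted p between 0.857 and 0.954. In serine/glycine-free medium 0 of 5 were called, beside 0.05% of all genes, and 0 had an unadjusted p under 0.05, against 1055 of all genes. There SOX9 stood at 0.48 ± 0.22 (limma adjusted p = 0.801), MITF at 0.38 ± 0.30, SERPINF1 at −0.49 ± 0.40, RDH5 at 0.11 ± 0.35 and PAX6 at −0.05 ± 0.38.

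MITF, SOX9 and PMEL were higher in the library labelled knockout in 4 of 4 pairs, by 0.37 ± 0.26, 0.40 ± 0.22 and 0.49 ± 0.36 on the log2 scale (SD, n = 4 pairs, exact two-sided sign-flip p = 0.125 for each, the smallest possible). Of all genes tested, 8.34% were higher in 4 of 4, and 9.06% of those below the filter. The count of members lower in 4 of 4 was 0, beside 13.2% of genes tested and 6.95% of those below the filter. The pairs differed in size: MITF was 1.34 and 1.06 times as high in batch 1 and 1.42 and 1.85 times in batch 2. SOX9 was 1.32 and 1.22 times as high in batch 1 and 1.23 and 1.80 times in batch 2. For PMEL, batch 2 wild type was at or near 0, and without the filter its difference in serine/glycine-free medium was 0.73 ± 0.24 (limma adjusted p = 0.834). In batch 2 the same pairs differed in the markers of other epithelia, 1.91 and 2.55 times higher in sum in the libraries labelled knockout, and the part of this in the members' differences was not tested. In batch 1 the sums with the knockout label were 1.27 and 1.07 times those of wild type for other epithelia and 1.28 and 1.37 times for mesenchyme.

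The response to the medium did not differ past the threshold by genotype label in a tested member. Of 5 members 0 were called, beside 0.0611% of all genes, and 0 had an unadjusted p under 0.05, against 276 of all genes. The interaction, the response in libraries labelled knockout minus that in wild type, was largest for PAX6 at −0.42 ± 0.53 and smallest for MITF at 0.02 ± 0.43 (SE, limma adjusted p = 1 for all 5). PMEL, below the filter, was lower without serine and glycine in wild type of both batches and higher in the libraries labelled knockout of both, with an interaction of 0.47 ± 0.34 (limma without the filter, adjusted p = 1).

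Whether the genotype difference was the same in both batches was tested by comparing the differences within the tables, each a mean over the 2 media. The media give the spread here, so p-values speak of these cultures alone. Of the 5 tested members 0 were called, beside 3.91% of all genes, and 1 (RDH5) had an unadjusted p under 0.05, against 3995 of all genes. RDH5 differed by −0.07 and −0.27 on the log2 scale in batch 1 (labelled knockout minus wild type) and by 0.79 and 0.50 in batch 2, a difference between batches of 0.81 ± 0.32 (SE, limma adjusted p = 0.221). The other 4 stood at 0.40 ± 0.53 for SERPINF1, 0.31 ± 0.37 for MITF, 0.20 ± 0.25 for SOX9 and 0.12 ± 0.52 for PAX6. RPE65 and BEST1, below the filter, also had opposite signs in the batches: RPE65 was higher with the knockout label in batch 1 and lower in batch 2, and BEST1 the reverse, with the same signs for FTH1 at the same locus (222 to 207 and 300 to 216 FPKM in batch 1, 473 to 659 and 538 to 782 in batch 2, from wild type to labelled knockout). Opposite signs in both media were found in 19.5% of genes tested and 15.8% of those below the filter.

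Of the RPE function genes, 9 of 39 tested (23.1%) were called in this comparison, against 3.91% of all genes, 7 in the higher and 2 in the lower direction. The lists were chosen with earlier results of these data known, so these shares cannot be read as an enrichment. Leaving out 1 library, whichever it was, brought the count to between 1 and 4. Setting aside the 2 genes that passed the filter only through the batch 2 libraries labelled knockout (GPR143, called, and LRAT), 8 of 37 were called. The largest was CDH3, P-cadherin of RPE cell junctions, which was at 0.295 to 0.587 FPKM in batch 1, at 1.38 and 1.16 in batch 2 wild type and at 56.0 and 61.0 in batch 2 labelled knockout (difference between batches 4.90 ± 0.26, limma adjusted p = 0.00224). The keratin genes KRT8 and KRT18, which share a locus, were lower with the knockout label in batch 1 and higher in batch 2 (2.49 ± 0.24 and 2.14 ± 0.25). So was EFEMP1 (3.22 ± 0.45), and GPNMB, though it was under 1 FPKM in all of batch 2 (1.5 ± 0.25).

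ATP1B1, the sodium pump subunit, was at 27.6 to 38.3 FPKM in batch 1 whatever the label, and at 26.4 and 35 in batch 2 wild type against 109 and 95.8 in batch 2 labelled knockout (1.72 ± 0.31, limma adjusted p = 0.0469). GPR143 and LRAT passed the filter only through the batch 2 libraries labelled knockout, where they are high, so their differences of 1.64 ± 0.28 and 1.55 ± 0.29 are given as a description. RBP4, the plasma retinol carrier, was at 8.43 and 7.86 FPKM in batch 2 wild type and at 1.86 and 0.744 in batch 2 labelled knockout, but higher with the label in batch 1 (−2.73 ± 0.44). LIF, a cytokine, was placed likewise (−2.21 ± 0.19).

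Called genes of other cell types moved beside these. Of 8 tested markers of other epithelia 5 were called higher, and 4 of 11 mesenchyme and fibroblast genes lower. Without GRHL2, which passed the filter only through the batch 2 libraries labelled knockout, the epithelial count was 4 of 7. Outside those libraries ESRP1 reached 1 FPKM only in batch 1 wild type without serine and glycine (2.09 FPKM). It too would have failed the filter without them, and the 4 of 7 still includes it. CDH1 differed by 5.46 ± 0.31 and VIM (vimentin) by −2.92 ± 0.19 between batches. Of the 9 called RPE function genes, 3 (CDH3, KRT8, KRT18) are genes of epithelia in general. The medians over the tested genes were 3.55 for other epithelia, −1.0 for mesenchyme, 0.83 for the visual cycle, 0.71 for secreted proteins, 0.35 for transport, 0.28 for melanosome genes, −0.52 for the MITF family and SOX partners and 0.31 for the 5 identity genes, against 0.02 over all genes. The part of the epithelial and mesenchymal genes in the RPE calls was not tested. Of the 9 calls, only that of CDH3 was kept in each alternative processing that gave it a value.

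**Figure D4:**
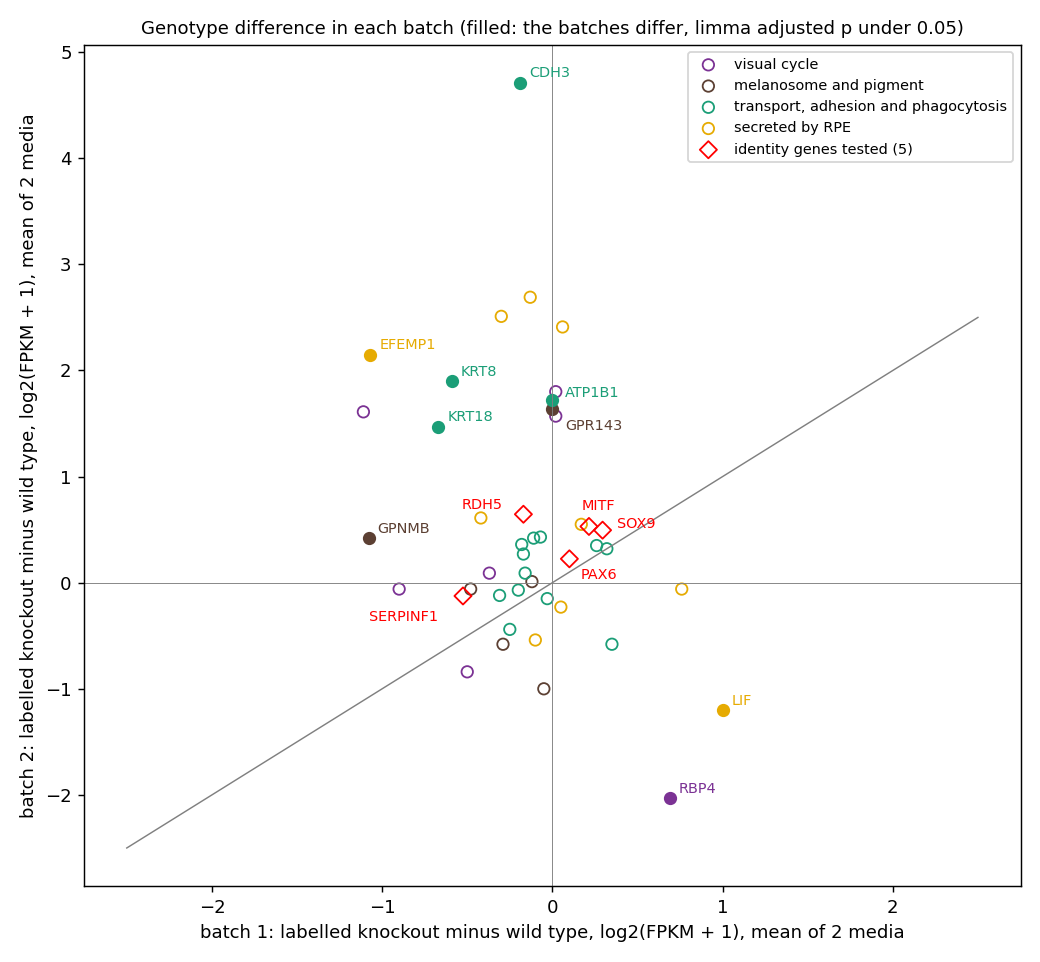
Labelled knockout minus wild type in batch 1 (horizontal) and in batch 2 (vertical), in log2(FPKM + 1) averaged over 2 media, for the 39 tested genes of the RPE function lists and the 5 tested identity genes (red diamonds), with the line of equality. Filled points are the 9 genes whose difference between batches passed an adjusted p of 0.05. All 5 identity genes lie within 1 log2 unit of 0 on both axes, while CDH3 stands at −0.19 and 4.71.

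The genes whose pattern over the 8 libraries was most like that of a member, after centring on each batch, were sought among genes of mean FPKM 5 or more. RDH5 was followed most closely by ACBD4 (Pearson r = 0.994), MITF by ETV3 (0.981), SOX9 by AL139819.1 (0.988) and then ZNF576 (0.982), SERPINF1 by LTBP3 (0.985) and PAX6 by PIK3R2 (0.975). Each is the highest of 10095 or 10096 values over only 8 libraries that share the 4 conditions and their 2 tables, and each is given as a description. Of the members, only SOX9 reached that mean FPKM and was itself among the candidates.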

How the data were processed

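The authors deposited FPKM values of 57884 Ensembl genes in 2 tables of 4 libraries, 1 per batch, each normalized separately. TopHat, Cufflinks, Cuffdiff and hg19 are named in the submitters' processing notes; the sources used here do not give versions or settings, strand use among them. Cells grew 2 days in complete medium before the change of medium, per the labels' protocols. Groups and batches came from the labels. By the series text a shared number means cells treated together, so the batch was used as a block, which pairs the libraries. Loci are hg19, 1-based.

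The 17994 genes that reached an FPKM of 1 in 2 libraries were tested with limma 3.58.1 in R 4.3.3 on log2(FPKM + 1): 4 group means plus batch, trended prior, two-sided, Benjamini-Hochberg over all genes tested, threshold 0.05, with 3 residual and 2.97 prior degrees of freedom. The batch dependence was fitted with means of genotype label and batch plus medium (3 residual and 2.72 prior degrees of freedom). With 2 experiments, p-values rest on little replication. The steps were tested on simulated data. Pairs were compared by exact sign-flip tests over 16 arrangements. Protein-coding genes were told from other types by their GENCODE entry.

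The 10 members and the 10 gene lists were chosen with earlier results of these data known. Named were the members, ATF3, up to 4 genes of highest mean FPKM and up to 2 of smallest p per comparison in each list, and up to 3 genes of closest pattern per tested member. TYR, TYRP1, RGR, TTR, TIMP3, SLC16A1, SLC16A8, KCNJ13, KRT18, EFEMP1 and other list genes outside that rule, and genes sharing a member's locus, were named after their values were seen. PECAM1 was not matched by symbol. Alternatives varied the pseudocount, filter, scaling, prior, block, groups and libraries; 2 of them (only protein-coding genes, and omission of the batch 2 pair with the knockout label) were chosen after seeing the data.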

Additional observations from a re-analysis of the deposited data

Results flagged for a closer look

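The genotype difference (labelled knockout minus wild type, log2 scale) differed between batch 2 and batch 1 past an adjusted p of 0.05 (limma) for 18 genes of the lists. Among RPE function genes the differences were 1.72 for ATP1B1, 4.90 for CDH3, 3.22 for EFEMP1, 1.5 for GPNMB, 1.64 for GPR143, 2.14 for KRT18, 2.49 for KRT8, −2.21 for LIF and −2.73 for RBP4. Among markers of other epithelia they were 5.46 for CDH1, 4.32 for CLDN7, 3.15 for EPCAM, 5.98 for ESRP1 and 3.95 for GRHL2. Among mesenchyme and fibroblast genes they were −2.92 for VIM, −1.78 for ZEB1, −1.59 for CDH2 and −1.65 for COL3A1. GPR143 and GRHL2 passed the filter only through the batch 2 libraries labelled knockout, where they are high. ESRP1, also high there, would have failed the filter without them. Elsewhere it reached 1 FPKM only in batch 1 wild type without serine and glycine (2.09 FPKM). Of all genes tested, 3.91% were called in this comparison, and the lists were chosen with earlier results of these data known.

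Some identity genes had opposite signs in every pair of the 2 batches. The genotype difference of batch 2 minus that of batch 1 was 0.81 for RDH5 (limma adjusted p = 0.221). It was 0.70 for BEST1 and −0.27 for RPE65, which lie below the filter (limma without the filter, adjusted p = 0.371 and 0.589). FTH1, which shares the BEST1 locus, had the same signs as BEST1 in all 4 pairs, and its part in the BEST1 values was not tested. PMEL was lower without serine and glycine in both wild-type pairs and higher in both pairs labelled knockout, a difference of 0.47 (limma without the filter, adjusted p = 1). None of these 4 passed the threshold.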

How the results depend on the processing

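Under 18 alternatives, 0 of 526 values of 9 members passed the threshold (OTX2, at 0 throughout, had none), and the lowest adjusted p was 0.157. Without the replicate block, 0 members and 0 RPE function genes were called in the 5 comparisons it applies to; that setting and the one with only the compared groups could not be used for the batch dependence. Of 502 single-member values compared, 40 changed sign, all of values that had not passed the threshold; the cause was not tested.

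The 9 RPE function genes called in the batch dependence became 4 with a pseudocount of 0.1, 4 with no filter (more genes tested), 4 with FPKM of 1 or more in all 8 libraries (fewer genes tested), 10 with median ratio scaling, 11 with protein-coding genes only, and 1 to 4 when 1 library was left out. Each of the 8 libraries left out brought the count to 4 or fewer. Calls of CDH1, CDH3 and VIM were lost in 0 alternatives, that of KRT8 in 4 of 15 and that of RBP4 in 10 of 14. The members present in all 4 libraries became 1 in batch 1 at a level of 5 FPKM, and 5 in batch 2 at 0.5 FPKM and 1 at 5 FPKM.

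Leaving out 1 library moved the log2 values across 0 as follows. In the wild-type medium response MITF ran from −0.02 to 0.38, SERPINF1 from −0.76 to 0.50 and PAX6 from −0.07 to 0.96. In the response of libraries labelled knockout MITF ran from −0.21 to 0.61 and PAX6 from −0.05 to 0.09. In the genotype difference in complete medium RDH5 ran from −0.07 to 0.79, SERPINF1 from −0.53 to 0.21 and PAX6 from −0.14 to 0.89. In serine/glycine-free medium RDH5 ran from −0.28 to 0.51, MITF from −0.03 to 0.79, SERPINF1 from −1.12 to 0.15 and PAX6 from −0.48 to 0.39. In the genotype dependence of the response RDH5 ran from −0.67 to 0.18, MITF from −0.39 to 0.44, SOX9 from −0.03 to 0.37, SERPINF1 from −0.96 to 0.31 and PAX6 from −0.94 to 0.09. In the batch dependence MITF ran from −0.0034 to 0.63, SERPINF1 from −0.21 to 1.01 and PAX6 from −0.49 to 0.74.

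A pseudocount of 0.1 gave PAX6 −0.08 in the wild-type response, 0.54 in the genotype difference in serine/glycine-free medium (0.05 with 0.5), 0.21 in the genotype dependence and −0.34 in the batch dependence, and median ratio scaling gave it −0.01 in the response of libraries labelled knockout. Without both batch 2 libraries labelled knockout, MITF stood at −0.26 in the response of libraries labelled knockout, −0.0031 in the genotype difference in serine/glycine-free medium and −0.44 in the genotype dependence, and RDH5 at −0.39 in that genotype difference. The depth of the libraries is unknown, so no detection limit is given for members listed at 0.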
